A study of Solanum lycopersicum with 6 samples.

Results

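Under negative DIF, that is with the day cooler than the night, transcripts of 2 of the 3 HSP90 genes examined were lower in the tomato epicotyl, by 7.48-fold for Solyc06g036290 and by 4.75-fold for Solyc03g007890. The other HSP90 gene, the HSP101 gene and the 6 HSP70 or BiP genes did not pass the same test. The set comprised 10 chaperone genes named by their tomato identifiers, of 34527 genes with such an identifier on the array. Each gene had a single probe, so the set was 10 of 43803 probes that are not controls. The genes were chosen by family and not by their values on these arrays, although earlier results of these data were known when the list was drawn up.

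Heat shock proteins of these families are ATP-driven molecular chaperones. HSP70 proteins bind exposed hydrophobic stretches of unfolded polypeptides, and BiP is the HSP70 of the endoplasmic reticulum. HSP90 acts later, on nearly folded client proteins such as kinases and receptors, and HSP101 (ClpB) is a ring-shaped disaggregase that works with HSP70 to pull proteins out of aggregates. In plants each family has members that are made at ordinary temperatures and others that heat shock transcription factors switch on in warm or hot tissue. In Arabidopsis, HSP101 is needed for acquired tolerance to heat.

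Tomato seedlings (cultivar Managua RZ) were raised at 23°C and then kept for 7 d with a 16 h photoperiod under 300 µmol photons per square metre and second. Positive DIF was 30°C in the day and 25°C at night. Negative DIF was 25°C in the day and 30°C at night, so both treatments had the same pair of temperatures. Because the light period lasted 16 h, the daily mean temperature was higher under positive DIF. Total RNA from the epicotyl, the stem segment just above the cotyledons, was profiled at a labelled age of 14 d on 6 single-colour arrays, 3 biological replicates per treatment. The sources used here do not give the number of plants per replicate. The study's growth scheme places the harvest in the light period, when negative DIF seedlings were at 25°C and positive DIF seedlings at 30°C. The DIF treatment, the daily mean temperature and the temperature at harvest therefore cannot be told apart. An epicotyl is a mixture of cell types, so fewer cells of a type and less RNA per cell cannot be told apart either.

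Each array had 27230 to 29341 probes well above background and no saturated probe, and precision is limited by the small number of arrays. The processed signal at the 75th percentile of an array ranged from 1475 to 2417 and was highest on negative DIF replicate 1, so the log2 signal of each probe is given relative to that percentile. Slide 1 held replicates 1 and 2 of negative DIF. Slide 2 held replicate 3 of negative DIF and all positive DIF replicates. All 7 probes of 5 genes for the small subunit of Rubisco and for chlorophyll a/b-binding proteins were well above background on all 6 arrays, as is usual in green shoot tissue. Their log2 fold changes ranged from -0.26 to 1.35, and none of them passed the adjusted threshold. A fold change below 0 means less signal under negative DIF. Differences were tested with limma, with Benjamini-Hochberg adjustment over the 43803 probes. The heading of the deposited table of normalized values names the opposite treatment for each column, and a reader who follows it would obtain the opposite signs.

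All 10 chaperone probes were well above background on all 6 arrays, as were 25327 of all probes. The 10 genes had 8 log2 fold changes below 0 and 2 above 0, with a median of -0.07. Over all probes 18614 were below 0 and 25189 above 0, with a median of 0.07. Of the chaperone genes below 0, Solyc11g066060, Solyc10g086410, Solyc11g020040 and Solyc03g115230 lay close to 0 and changed sign in at least 1 alternative setting. At an adjusted p under 0.05, 2 of the 10 were lower, where 0.495% of all probes were, and 0 were higher, where 0.425% of all probes were. These shares include dim probes, and none of the 10 was dim. In the fit without dim probes 1993 of 26942 probes passed in either direction, and so did the same 2 genes. At an unadjusted p under 0.05 the same 2 genes were lower, where 8.72% of all probes were, and 0 were higher, where 10.2% of all probes were. All 3 negative DIF arrays lay below all 3 positive DIF arrays for 4 of the 10 genes, against 12.4% of all probes. All 3 lay above for 1 of the 10, against 14.6% of all probes.

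**Figure D1:**
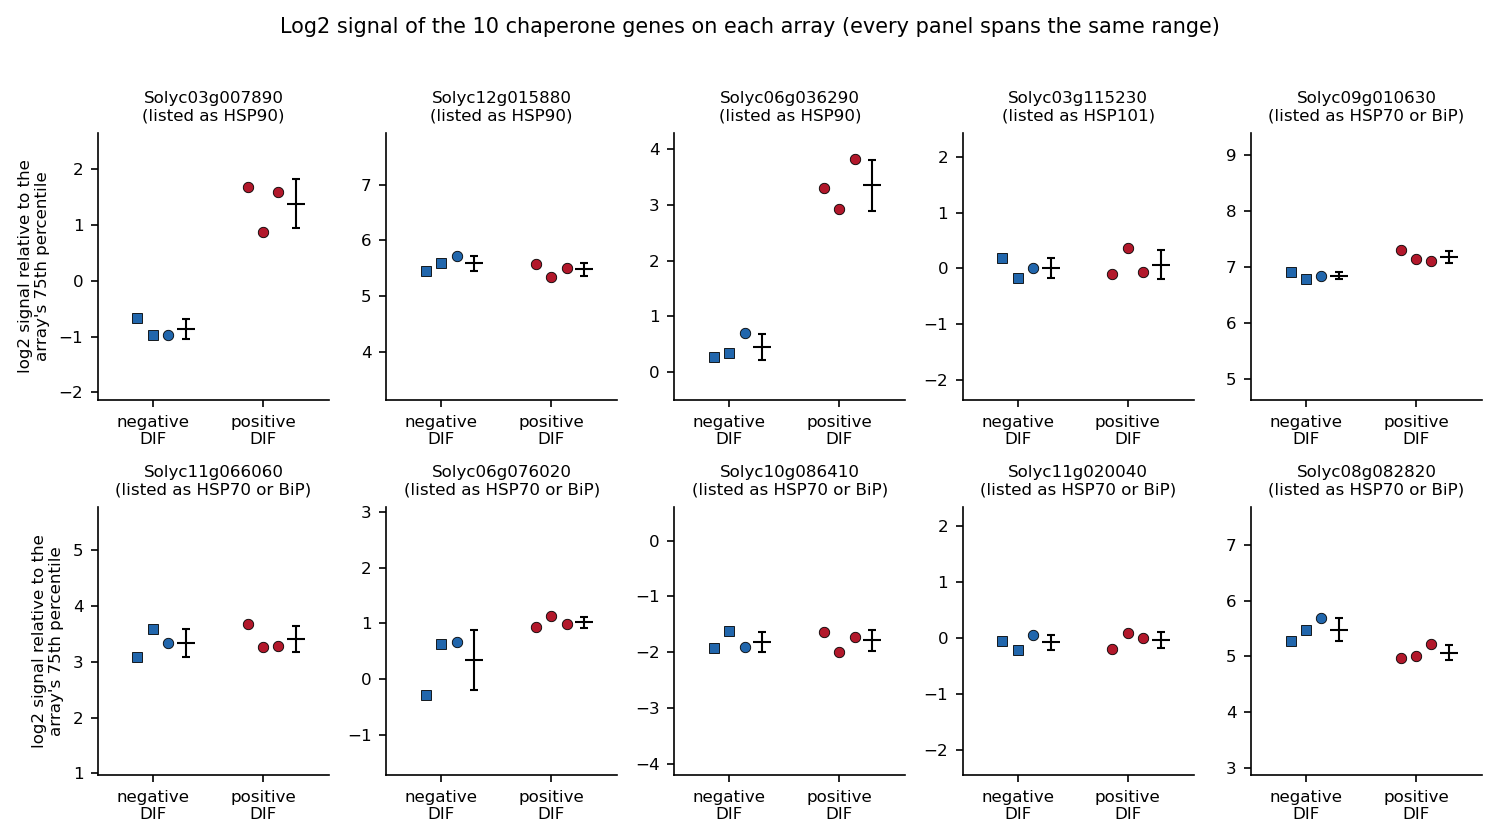
Log2 processed signal of the 10 chaperone genes on each array, relative to the array's 75th percentile (vertical axis), for negative DIF (blue) and positive DIF (red). Squares are arrays of slide 1, circles are arrays of slide 2, and black bars give the mean and SD of 3 arrays. The treatments are separated most widely for Solyc06g036290 and Solyc03g007890, by 2.21 and 1.54 between the nearest arrays, and overlap for 5 of the genes.

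Both genes that passed the adjusted threshold belong to the HSP90 family. Solyc06g036290 is described in the study's gene lists as an HSP90 and is paired there with AT5G52640, a heat-inducible cytosolic HSP90 of Arabidopsis. Under negative DIF the 3 arrays gave processed signals of 2934, 2413 and 2571, and under positive DIF they gave 14575, 11735 and 20931. Every negative DIF array was thus below every positive DIF array, and the positive DIF arrays were also more spread. After scaling to the 75th percentile, the mean log2 signal was 0.44 ± 0.23 (SD, n = 3) in the negative and 3.35 ± 0.46 (SD, n = 3) in the positive treatment. This is a log2 fold change of -2.90 (SE 0.28, 95% interval -3.59 to -2.22, limma adjusted p = 0.0275), or a signal 7.48-fold lower, with an interval from 4.65-fold to 12.0-fold. By p it was number 58 of the 43803 probes.

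Solyc03g007890, the second gene described as an HSP90, is paired with the same Arabidopsis gene. Its processed signal was 1529, 975 and 801 under negative DIF and 4743, 2852 and 4458 under positive DIF. The lowest positive DIF array, replicate 2, was also the lowest positive DIF array for Solyc06g036290, and it still lay above all negative DIF arrays. The mean relative log2 signal was -0.87 ± 0.18 (SD, n = 3) in the negative and 1.38 ± 0.44 (SD, n = 3) in the positive treatment, and the fold change on this scale was -2.25 (SE 0.27, 95% interval -2.90 to -1.60, limma adjusted p = 0.0356), a signal 4.75-fold lower with an interval from 3.03-fold to 7.47-fold. Both HSP90 genes stand in the study's own list of genes lowered by negative DIF, which was drawn from these arrays, so their description there is no independent evidence of the direction.

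The adjusted calls of both HSP90 genes depended on the model and on single arrays, while the fold changes moved little. With slide as a fixed block, which compares replicate 3 of negative DIF with the positive DIF arrays beside it on slide 2, the log2 fold change was -2.64 for Solyc06g036290 (limma adjusted p = 0.242, unadjusted p = 0.00102) and -2.36 for Solyc03g007890 (limma adjusted p = 0.285, unadjusted p = 0.00185). Without negative DIF replicate 1, 2 or 3, the limma adjusted p of Solyc06g036290 was 0.0978, 0.132 and 0.0335, and without positive DIF replicate 1, 2 or 3 it was 0.0634, 0.0562 and 0.0777. For Solyc03g007890 the limma adjusted p was 0.09999, 0.146 and 0.0548 without negative DIF replicate 1, 2 or 3, and 0.0746, 0.0562 and 0.103 without positive DIF replicate 1, 2 or 3. Fold changes in these 6 fits, as log2, stayed between -3.12 and -2.66 for Solyc06g036290 and between -2.50 and -2.10 for Solyc03g007890. Of all probes, 403 passed the adjusted threshold with all 6 arrays and 567 without negative DIF replicate 3. With any other single array left out, between 0 and 75 did, so the loss of calls was not particular to these 2 genes. In all 15 alternative settings the unadjusted p of both genes was under 0.05.

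Solyc12g015880 is listed as the remaining HSP90 gene and did not pass the test. Its relative log2 signal was 5.45, 5.597 and 5.73 under negative DIF and 5.58, 5.35 and 5.51 under positive DIF, so the treatments overlapped. The means were 5.59 ± 0.14 (SD, n = 3) and 5.48 ± 0.12 (SD, n = 3). It had a log2 fold change of 0.11 (SE 0.18, 95% interval -0.32 to 0.54, limma adjusted p = 0.849). The processed signals before scaling, 83144 to 105297 under negative DIF and 63346 to 70812 under positive DIF, did not overlap, and the overlap appeared once each array was set against its own 75th percentile. Its log2 fold change was between 0.02 and 0.25 in the 15 alternative settings.

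Comparing 2 probes within the same array removes the scaling of the arrays from the comparison. The difference between Solyc03g007890 and Solyc12g015880 was -6.45 ± 0.31 (SD, n = 3) in the negative and -4.09 ± 0.33 (SD, n = 3) in the positive treatment, on the log2 scale. The estimated changes of the 2 genes were thus unequal by 5.13-fold, with every negative DIF array below every positive DIF array. Each such shift is the difference of the 2 genes' log2 fold changes and not a further measurement. The difference between Solyc12g015880 and Solyc06g036290 was 5.14 ± 0.12 (SD, n = 3) and 2.13 ± 0.40 (SD, n = 3), an inequality of 8.08-fold that also separated the treatments on every array. The difference between Solyc03g007890 and Solyc06g036290, the pair that share an Arabidopsis partner, shifted by 0.65 and its treatments overlapped. A total of 8 pairs were compared, and with 3 arrays against 3 the smallest two-sided exact permutation p is 0.1, so no pair could pass 0.05. The exact p was 0.1 for both pairs with Solyc12g015880 (0.133 after adjustment over the 8 pairs) and 0.2 for the pair of lowered genes. Within slide 2 the shifts were -2.60 for Solyc03g007890 minus Solyc12g015880, 2.88 for Solyc12g015880 minus Solyc06g036290 and 0.28 for Solyc03g007890 minus Solyc06g036290. A level of one probe is not comparable with that of another, so only the shift of a difference between treatments is read.

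**Figure D2:**
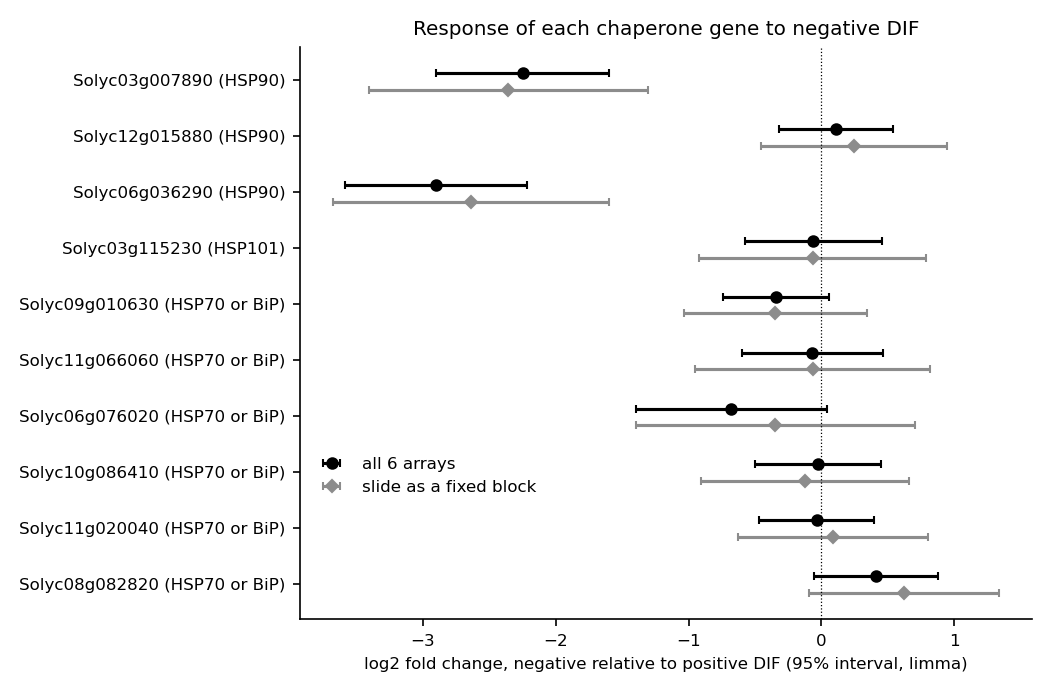
Log2 fold change of each chaperone gene, negative relative to positive DIF, with its 95% interval from limma (horizontal axis). Black circles use all 6 arrays and grey diamonds fit slide as a fixed block. Solyc06g036290 (-2.90) and Solyc03g007890 (-2.25) lie far to the left of 0 in both fits, and the intervals of the other 8 genes cross 0.

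Solyc03g115230, listed as HSP101, showed no detectable difference. Its relative log2 signal was 0.18, -0.16 and 0.0021 under negative DIF and -0.11, 0.37 and -0.06 under positive DIF. The highest and the lowest values thus came from different treatments and the ranges overlapped. The means were 0.0067 ± 0.17 (SD, n = 3) and 0.07 ± 0.26 (SD, n = 3), and the processed signal was between 1376 and 2743. The log2 fold change was -0.06 (SE 0.21, 95% interval -0.58 to 0.45, limma adjusted p = 0.905). The interval reaches to a signal 1.49-fold lower under negative DIF. Across the 6 arrays, the probes whose signal followed that of Solyc03g115230 most closely, among 25326 probes well above background on all arrays, were Solyc07g027010 (Pearson r = 0.99) and Solyc02g082240 (r = 0.99). The closest 5 probes had r from 0.97 to 0.99, no table used here describes any of their genes, and the r is a description over 6 points that share 2 slides.

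The 6 genes listed as HSP70 or BiP gave 5 log2 fold changes below 0 and 1 above, and none passed either threshold. Solyc06g076020 had the largest of them. Its relative log2 signal was -0.28, 0.63 and 0.67 under negative DIF and 0.94, 1.14 and 0.99 under positive DIF. The negative DIF arrays were all lower, and replicate 1 lay well below the others. The log2 fold change was -0.68 (SE 0.30, 95% interval -1.40 to 0.04, limma unadjusted p = 0.0604, adjusted p = 0.289). Without negative DIF replicate 1 it was -0.37 (unadjusted p = 0.0797, limma), and within slide 2 it was -0.35 (unadjusted p = 0.440, limma). Its unadjusted p was under 0.05 in 5 of the 15 alternative settings, the lowest being 0.0213 with slide as a random block (limma), and its adjusted p in none. That fit had a negative estimated slide correlation (-0.216) and called more probes than any other setting, so its p is read with caution.

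Solyc09g010630 had processed signals of 179580 to 289781 under negative DIF and 203067 to 234614 under positive DIF. After scaling, its log2 signal was 6.91, 6.78 and 6.84 under negative DIF and 7.31, 7.14 and 7.11 under positive DIF. The negative DIF arrays were all lower by this measure, although the unscaled ranges overlapped. This gave a log2 fold change of -0.34 (SE 0.17, 95% interval -0.74 to 0.06, limma adjusted p = 0.332). It was -0.02 in the authors' deposited normalized values, -0.20 after quantile normalization and -0.30 after normexp correction. Its unadjusted p was under 0.05 in 2 of the 15 alternative settings and its adjusted p in none.

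Solyc08g082820 was the one gene with all negative DIF arrays above all positive DIF arrays. It is the only listed HSP70 or BiP gene on tomato chromosome 8, the chromosome on which RefSeq places the tomato BiP gene, but no table used here pairs the 2 names. The same comparison does not hold for HSP101. RefSeq places HSP100/CLPB on chromosome 2, and the gene listed as HSP101 is on chromosome 3. The relative log2 signal of Solyc08g082820 was 5.27, 5.48 and 5.69 under negative DIF and 4.98, 5.01 and 5.22 under positive DIF. Only 0.06 separated the nearest arrays of the treatments. The means were 5.48 ± 0.21 (SD, n = 3) and 5.07 ± 0.13 (SD, n = 3), and the log2 fold change was 0.41 (SE 0.19, 95% interval -0.05 to 0.88, limma unadjusted p = 0.0742, adjusted p = 0.316). Its unadjusted p was under 0.05 in 4 of the 15 alternative settings, among them the fit without negative DIF replicate 1 (log2 fold change 0.52, limma unadjusted p = 0.0379).

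The remaining genes listed as HSP70 or BiP differed by less than their spread. Solyc11g066060 had relative log2 signals of 3.09, 3.58 and 3.34 under negative DIF and 3.67, 3.26 and 3.29 under positive DIF, and its log2 fold change was -0.07 (95% interval -0.60 to 0.46). Solyc11g020040 had -0.06, -0.21 and 0.05 against -0.19, 0.08 and -0.0027, a log2 fold change of -0.04 (95% interval -0.47 to 0.40). Solyc10g086410 had -1.92, -1.61 and -1.91 against -1.64, -2.003 and -1.72, a log2 fold change of -0.03 (95% interval -0.50 to 0.45). The treatments overlapped for all 3, and their limma adjusted p ranged from 0.905 to 0.952. The sign of each of these small differences, and that of Solyc03g115230, turned in at least 1 setting or when an array was left out. For 7 of the 10 chaperone genes the 95% interval of the log2 fold change lay within 1 of 0, against 48.5% of all probes, dim ones included.

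Within arrays, Solyc08g082820 shifted upward under negative DIF relative to each of the other 5 genes listed as HSP70 or BiP. The shift was 1.09 against Solyc06g076020 and 0.75 against Solyc09g010630, and for both the treatments did not overlap. It was 0.44 against Solyc10g086410 and 0.45 against Solyc11g020040, again without overlap. Against Solyc11g066060 it was 0.48 and the treatments overlapped. The exact permutation p was 0.1, the smallest possible, for 4 of these pairs and 0.2 for that with Solyc11g066060 (0.133 and 0.2 after adjustment over the 8 pairs). Within slide 2 the 5 shifts were 0.97 against Solyc06g076020 and Solyc09g010630, 0.74 against Solyc10g086410, 0.53 against Solyc11g020040 and 0.69 against Solyc11g066060. These 5 comparisons share the same Solyc08g082820 values and are not independent of each other.

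**Figure D3:**
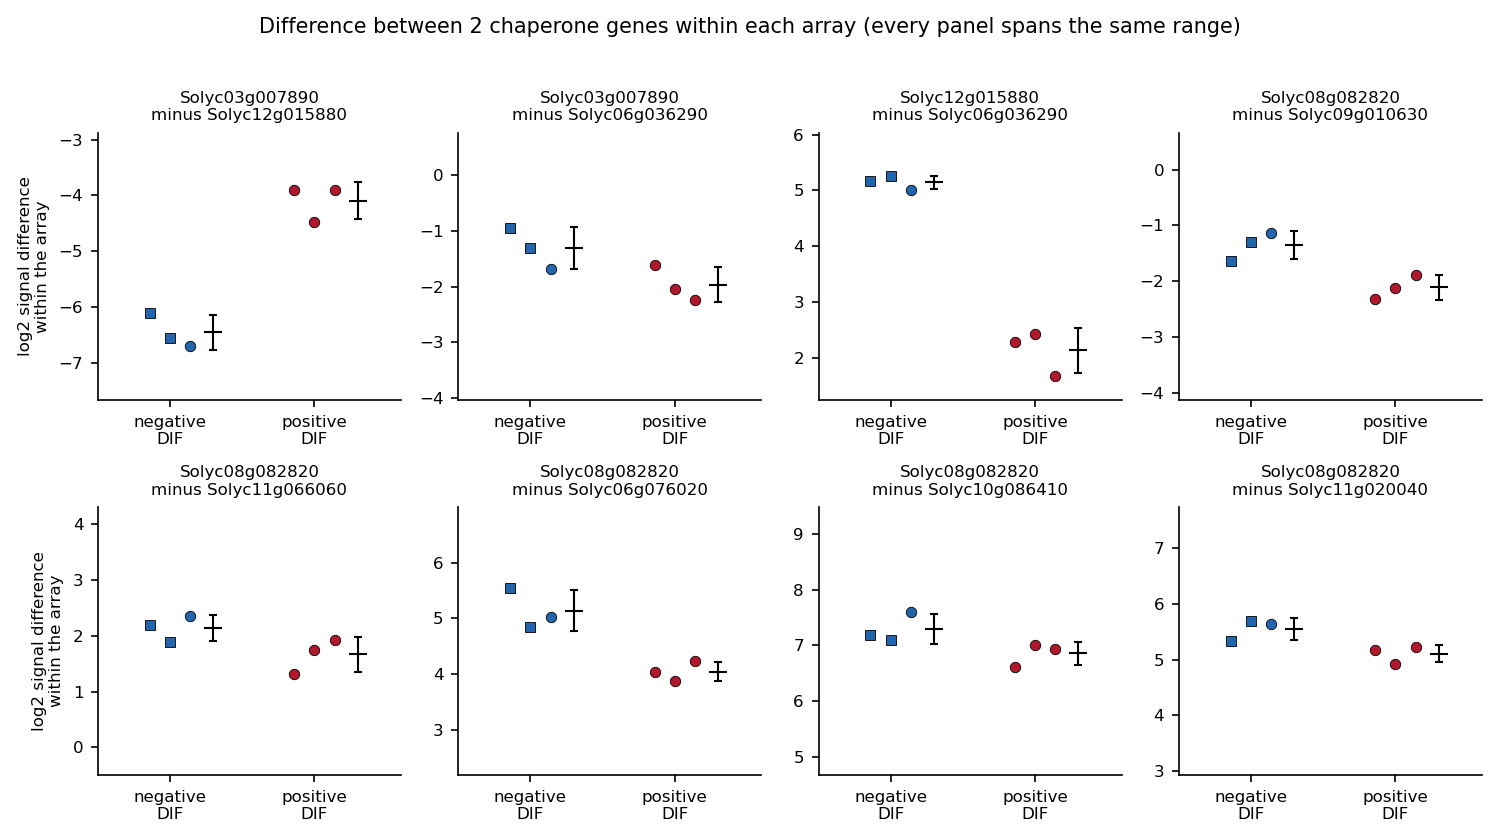
Difference in log2 signal between 2 chaperone genes on the same array (vertical axis), for the 3 pairs of HSP90 genes and for Solyc08g082820 with each other gene listed as HSP70 or BiP. Blue is negative DIF, red is positive DIF, squares are slide 1, circles are slide 2 and black bars are the mean and SD of 3 arrays. Both HSP90 pairs that include Solyc12g015880 shift by more than 2 on the log2 scale (-2.36 and 3.01), against 0.65 for the pair without it.

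The spread between replicates was small for most of these genes. The SD within treatments, pooled over both, had a median of 0.20 on the log2 scale over the 10 genes and ranged from 0.09 for Solyc09g010630 to 0.39 for Solyc06g076020. Over all 25327 probes well above background on every array the median was 0.27. The HSP90 genes that fell were at the upper end, 0.34 for Solyc03g007890 and 0.36 for Solyc06g036290, and their spread was larger under positive DIF.

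Other genes of the chaperone network were taken from the descriptions in the study's lists of the 600 genes most changed on these arrays. Of those 600 genes, 10 others were described as HSP70, J-protein, BAG-domain co-chaperone, small heat shock protein or heat shock transcription factor, and none as HSP90 or HSP101. Because these lists were made from the same arrays, all 10 passed the unadjusted threshold by construction, and neither their direction nor their count is independent evidence. They comprised 9 genes lower and 1 higher under negative DIF, and the median log2 fold change over their 12 probes, itself set by that selection, was -2.58. The adjusted threshold was passed by 3 of them (2 lower and 1 higher), where 0.495% of all probes were lower and 0.425% higher.

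The HSP70 among them, Solyc04g011440, is paired with AT3G12580, a heat-inducible cytosolic HSP70 of Arabidopsis, and is not one of the 6 listed above. Its processed signal was 2283, 3159 and 3241 under negative DIF and 5931, 6937 and 7052 under positive DIF, with no overlap. The log2 fold change was -1.57 (SE 0.32, limma unadjusted p = 0.00221, adjusted p = 0.0756). A J-protein, a class that stimulates ATP hydrolysis by HSP70, fell, with log2 fold changes of -2.27 and -2.30 on the 2 probes of Solyc02g062160 (limma adjusted p = 0.0447 and 0.0431). The BAG-domain gene Solyc01g095320, of a family that binds HSP70, had the largest value, -4.84 (SE 0.82), with a limma adjusted p of 0.0580.

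Small heat shock proteins, which hold unfolding proteins without using ATP, were represented by 4 genes. Solyc08g062450 fell by 2.68 on the log2 scale (SE 0.20, limma adjusted p = 0.0227). Its processed signal was 209, 183 and 158 under negative DIF and 1095, 843 and 816 under positive DIF, with a pooled SD of 0.19 within treatments. The values of the other small heat shock protein genes were -3.69 for Solyc03g113930, -2.48 for Solyc08g062340 and -2.03 for Solyc05g014280, with limma adjusted p from 0.0527 to 0.0949.

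Heat shock transcription factors bind the promoters of chaperone genes, and those of class B can act as repressors. Solyc02g079180, paired with AT4G11660 of class B in Arabidopsis, rose by 2.99 on the log2 scale (SE 0.30, limma adjusted p = 0.0275). Its processed signal was 244, 156 and 119 under negative DIF and 16.7, 23.1 and 10.95 under positive DIF, and it was well above background on 5 of the 6 arrays, positive DIF replicate 3 being the exception. The 2 genes paired with AT3G22830 of class A had the opposite sign without passing the adjusted threshold. They gave -2.93 and -2.92 on the 2 probes of Solyc06g053950 (limma adjusted p = 0.0646 and 0.0677) and -2.74 for Solyc06g053960 (limma adjusted p = 0.0860). When each array was left out in turn, the limma adjusted p ranged from 0.0323 to 0.120 for Solyc08g062450, from 0.0357 to 0.1302 for Solyc02g079180 and from 0.0425 to 0.164 over both probes of Solyc02g062160. None of these related genes passed the adjusted threshold with slide as a fixed block. With all 6 arrays the 9 lower genes and both lowered HSP90 genes had every negative DIF array below every positive DIF array. Over all probes 12.4% did. All of these genes stand in the study's lists, which were drawn from the same arrays, so this separation is no independent evidence.

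**Figure D4:**
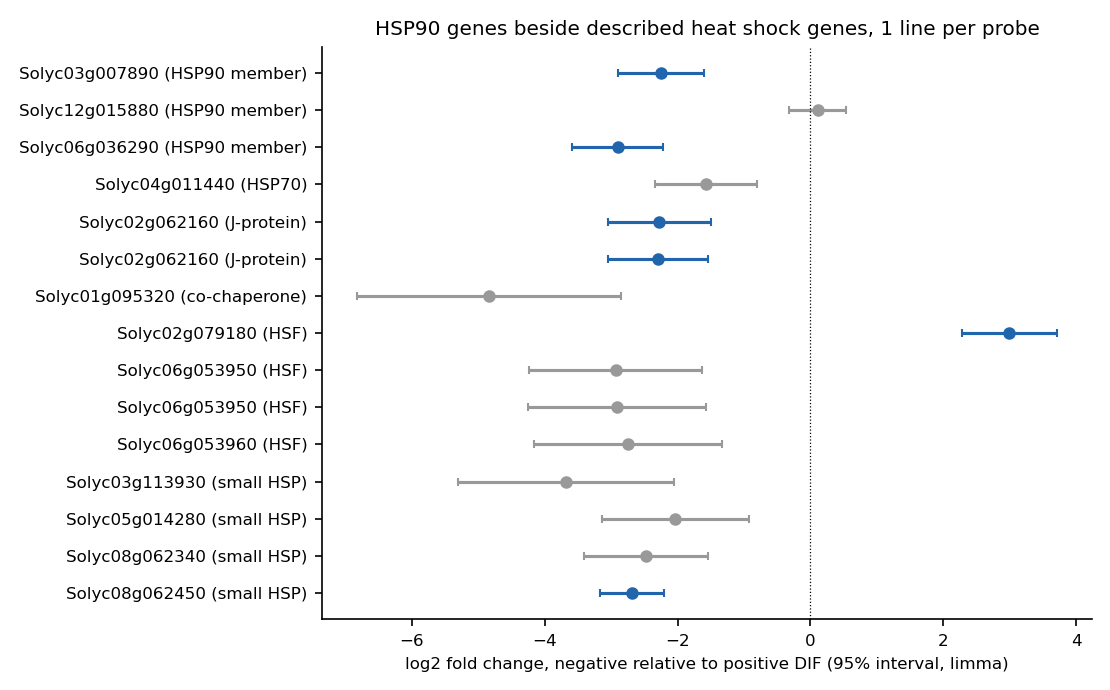
Log2 fold change, negative relative to positive DIF, with 95% interval from limma, for the 3 HSP90 genes and for each probe of the 10 heat shock genes described in the study's lists. Blue marks a limma adjusted p under 0.05 and grey marks the rest. Solyc06g036290 (-2.90) and Solyc03g007890 (-2.25) lie among the lowered small heat shock protein and J-protein genes, while Solyc12g015880 (0.11) and the raised transcription factor gene Solyc02g079180 (2.99) do not. The 10 genes were listed for their change on these same arrays, so unchanged genes of these families could not appear and the positions show no shared response.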

How the data were processed

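RNA from 6 epicotyl samples, 3 per treatment as labelled, was hybridised in a single colour to Agilent arrays. The authors scanned them with an Agilent scanner and obtained signals from the images with Feature Extraction 10.10.1.1. They deposited the spot intensity per probe, background-subtracted within the array. The authors also deposited log2 values normalized by a method not given in the sources used here; their columns match the scanner files by rank (Spearman correlation 1 over 26865 genes with a single probe) and were used as an alternative only. The heading of that table was not followed, because the study's supplementary lists name the opposite treatment. So do the titles of the samples whose scanner files the columns match. The p-values and fold changes of those lists were not used.

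Processed intensities were converted to log2 and set against the 75th percentile of their array, after removal of outlier spots (2 each on 2 arrays). In R 4.3.3, limma 3.58.1 compared the treatments over 43803 probes with lmFit and eBayes and without a filter on dim probes. Within-array differences of 8 gene pairs were tested by two-sided exact permutation with Python 3.11.15 and scipy 1.17.1. Alternatives were quantile normalization, the deposited values, normexp background correction (median spot signal, offset 50), a filter that kept 26942 probes with signal well above background throughout 1 treatment or both, Student's t-test (named in the study for other experiments, not for the arrays), trended and robust eBayes moderation, a fixed or random block for slide, a block for the replicate number, and each array left out in turn. The fit was tested on simulated data.

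The 10 genes, the related list and the tests were chosen with earlier results of these data known. Named genes were all 10 members, the related genes as grouped by description, and the genes most like Solyc03g115230 by Pearson r. Gene descriptions came from the study's lists of 600 genes alone, because none of the 41476 RefSeq genes carries a tomato identifier of the array's kind. The family of the 8 genes other than Solyc03g007890 and Solyc06g036290 therefore rests on the gene list alone. Probe and promoter sequences were not used here, so signal shared between near-identical HSP70 or HSP90 genes was not tested and a planned search for heat shock elements was not run.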

Additional observations from a re-analysis of the deposited data

How the results depend on the processing

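Of the 15 alternative settings, the adjusted call held in 7 for Solyc06g036290 and in 6 for Solyc03g007890, and the direction held in all 15. For both genes these included slide as a random block, whose estimated correlation was negative (-0.216). Student's t-test gave the same log2 fold changes with adjusted p of 0.0810 and 0.0902, and slide as a fixed block gave -2.64 and -2.36. Same-numbered arrays deviated from their treatment means with correlations of 0.00576, 0.044 and 0.223, so the replicate numbers were not taken as pairs. With the replicate block the log2 fold changes were -2.90 (limma adjusted p = 0.0715) and -2.25 (limma adjusted p = 0.0732), and 0 of all probes, 0 of the 10 genes and 0 of the lower related genes passed the adjusted threshold. Leaving out 1 array gave -3.12 to -2.66 for Solyc06g036290 and -2.50 to -2.10 for Solyc03g007890, and left between 0 and 1 of the 10 genes lower at the adjusted threshold. The count was 0 with the t-test and with the fixed slide block. One gene, Solyc08g082820, was higher at the unadjusted threshold with normexp, with trend and robust moderation and with the t-test, and leaving out 1 array gave between 0 and 1.

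The sign of small differences turned. With 1 array left out, Solyc11g066060 ranged from -0.1916 to 0.0632, Solyc10g086410 from -0.1336 to 0.05, Solyc11g020040 from -0.1138 to 0.0336 and Solyc03g115230 from -0.1494 to 0.0905 on the log2 scale. Solyc10g086410 gave 0.0034 with slide as a random block, and Solyc11g020040 gave 0.0873 with slide as a fixed block. The within-array shift of Solyc08g082820 against Solyc09g010630 was 0.39 in the deposited values.

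Over all probes, 403 passed the adjusted threshold in the reported fit, 1266 with quantile normalization, 2300 in the deposited values, 2099 with normexp, 1993 without dim probes, 1810 with trend and robust, 29 with the t-test, 0 with slide as a fixed block and 3017 with slide as a random block, whose estimated correlation was -0.216. Leaving out 1 array gave between 0 and 567. At the unadjusted threshold 8270 probes passed, and 3234 with slide as a fixed block. Of the related genes 2 were lower at the adjusted threshold, against 8 in the deposited values and with trend and robust, 9 with normexp, with a random slide block and without dim probes, 0 with the t-test and with slide as a fixed block, and between 0 and 2 when 1 array was left out. The median log2 fold change of all probes was 0.07 in the reported fit and -0.20 with normexp. The cause of these changes was not tested.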
